A study of Mus musculus with 15 samples.

Results

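Slc22a5, Slc22a7, Slc22a18, Slc22a23, Slc22a26, Slc22a27, Slc22a28 and Slc22a30 are 8 genes of the Slc22 family of membrane carriers for organic ions, picked by symbol from the 56980 gene IDs of a liver RNA-seq count table. All 8 passed the filter on low counts, among 14627 genes tested. The livers came from wild-type male C57BL/6J mice that began 1 of 3 diets at 15 weeks of age and stayed on it for 9 months. The control diet held 10% fat, the high-fat diet 60% fat and the ketogenic diet 89.9% fat. With control replicate 1, which the series' design text calls contaminated, left out, 4 control, 5 high-fat and 5 ketogenic libraries remained. Whether every library is from its own mouse is not stated, and the p-values rest on how far these samples spread, which may be technical. All groups share strain, sex, genotype, starting age and duration, and no diet was sampled at an earlier time. Every sample title also carries the label ALF, which the titles do not explain. In whole liver RNA, fewer cells of a type and less RNA per cell cannot be told apart.

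Slc22 proteins carry organic cations, anions and zwitterions across the plasma membrane, and in the liver they take up metabolites and drugs from the blood. Slc22a5 encodes OCTN2, the sodium-dependent carnitine transporter; carnitine carries long-chain fatty acids into mitochondria for oxidation. Slc22a7 encodes the organic anion transporter OAT2. Slc22a18 lies in an imprinted chromosome domain, and Slc22a23 is an orphan member. Slc22a26, Slc22a27, Slc22a28 and Slc22a30 belong to a tandem group of rodent genes related to the organic anion transporters, which also holds Slc22a29. In the GENCODE M21 gene order Slc22a26, Slc22a27, Slc22a28, Slc22a29 and Slc22a30 follow each other on chromosome 19 with no other protein-coding gene between them, and Slc22a8 and Slc22a6 come next.

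Sequence was examined first, because copies in the tandem group are alike and no source used here states how reads shared between genes were counted. RefSeq promoter windows of build GRCm38.p6 were found for 7 of the 8 genes. Slc22a28 (chr19:8131983-8132226, minus strand) and Slc22a30 (chr19:8405112-8405355, minus strand) had the most alike pair. The 244 bases upstream of their starts that both windows hold are shown 5′ to 3′, with the 6 bases at which they differ in capitals:
Slc22a28: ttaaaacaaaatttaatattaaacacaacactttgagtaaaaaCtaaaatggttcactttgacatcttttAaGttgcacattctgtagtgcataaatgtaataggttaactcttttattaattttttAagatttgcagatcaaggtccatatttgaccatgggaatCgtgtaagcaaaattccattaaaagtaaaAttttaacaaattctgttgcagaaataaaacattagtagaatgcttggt
Slc22a30: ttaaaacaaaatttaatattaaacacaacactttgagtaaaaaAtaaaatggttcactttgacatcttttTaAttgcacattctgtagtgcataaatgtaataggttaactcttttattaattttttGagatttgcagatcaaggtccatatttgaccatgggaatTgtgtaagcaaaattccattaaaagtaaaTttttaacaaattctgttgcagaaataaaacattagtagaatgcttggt
These stretches were 97.5% identical.

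The promoters of the 3 genes that were higher on both fat-rich diets are shown for contrast, as the 250 bases upstream of the start, 5′ to 3′, with matches to the motifs searched in capitals. They lie at chr11:53891704-53891953 for Slc22a5, chr19:7802668-7802917 for Slc22a26 and chr19:7966028-7966277 for Slc22a27, all on the minus strand of GRCm38.p6:
Slc22a5: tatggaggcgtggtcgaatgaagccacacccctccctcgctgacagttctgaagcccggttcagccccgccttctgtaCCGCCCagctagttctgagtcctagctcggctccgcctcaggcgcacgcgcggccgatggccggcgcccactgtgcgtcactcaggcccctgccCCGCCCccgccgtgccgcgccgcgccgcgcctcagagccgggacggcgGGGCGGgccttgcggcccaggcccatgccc
Slc22a26: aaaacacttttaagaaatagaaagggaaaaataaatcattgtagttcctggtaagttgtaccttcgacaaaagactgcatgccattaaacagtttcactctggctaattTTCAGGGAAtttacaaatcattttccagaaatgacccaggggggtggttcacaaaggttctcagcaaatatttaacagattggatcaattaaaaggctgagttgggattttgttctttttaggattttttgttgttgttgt
Slc22a27: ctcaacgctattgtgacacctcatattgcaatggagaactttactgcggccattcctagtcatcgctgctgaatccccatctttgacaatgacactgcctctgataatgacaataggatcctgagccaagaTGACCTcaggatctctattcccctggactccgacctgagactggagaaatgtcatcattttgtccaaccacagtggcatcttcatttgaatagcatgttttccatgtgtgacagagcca
The motifs searched on both strands were AGGTCA, the repeat unit of many nuclear receptor sites; AGGTCANAGGTCA, the direct repeat bound by PPAR and HNF4 dimers, which contains the former and is found in 0.0335% of windows; TTCNNNGAA, the STAT motif; GGGCGG, the GC box; and TTGCNNAA, a C/EBP-type motif. Slc22a5 held 3 GC boxes in a window of 73.6% G and C with 30 CpG dinucleotides; 32.7% of the 32841 promoter windows of this length hold a GC box. Slc22a26 held 1 TTCNNNGAA match, found in 7.02% of windows, and Slc22a27 held 1 AGGTCA match, found in 14%. Slc22a28 and Slc22a30 each held 1 TTGCNNAA match, found in 9.57% of windows. Slc22a23 held 4 GC boxes in a window of 78.4% G and C, and Slc22a18 held none of the motifs. AGGTCANAGGTCA matched in none of the 7 windows. A match is a run of letters, not evidence of binding.

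Transcripts were alike as well. Of the distinct stretches of 50 bases in GENCODE M21 transcripts of Slc22a28, 53.3% also occur in Slc22a30, and 31.0% of those of Slc22a30 occur in Slc22a28. Slc22a27 shared 25.3% with Slc22a29, 7.86% with Slc22a30 and 6.93% with Slc22a28. Slc22a26 shared no such stretch with another Slc22 gene, but 6.21% with the gene AC115715.1. Slc22a5 shared 26.1% with its neighbour Slc22a21, a related carnitine transporter gene that had 2 to 12 counts per library here. Slc22a7, Slc22a18 and Slc22a23 shared none with any gene. Counts of Slc22a27, Slc22a28, Slc22a29 and Slc22a30 are uncertain where reads fall in shared stretches.

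**Figure D1:**
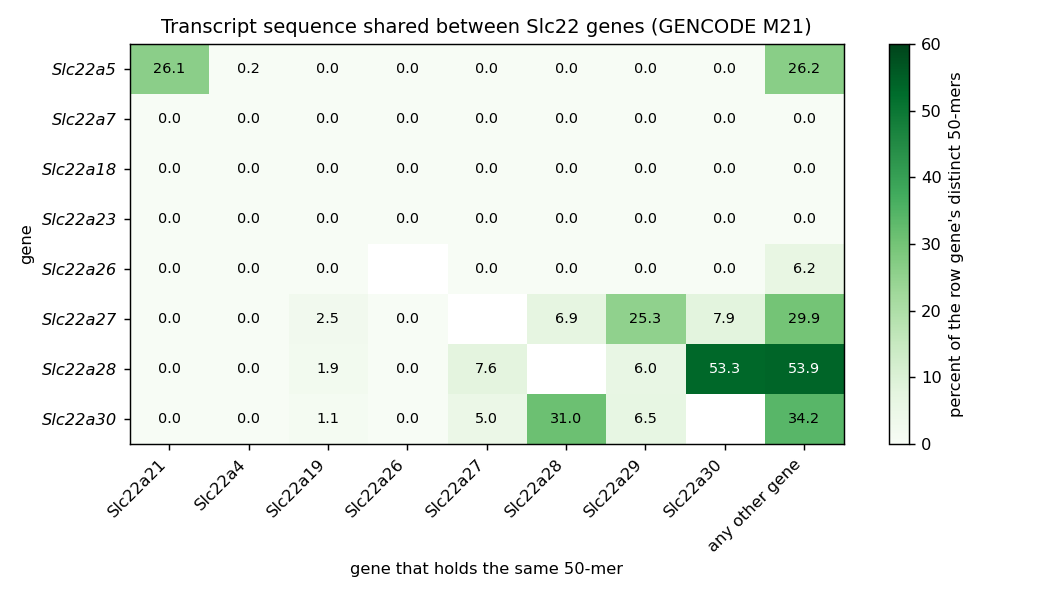
Percent of each gene's distinct 50-base stretches (rows, the 8 genes) that also occur in transcripts of another gene (columns), in GENCODE M21; blank cells are a gene against itself. The largest share is that of Slc22a28 with Slc22a30, 53.3%, and Slc22a26 shares none within the family.

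Across the 14 libraries total counts ran from 16329425 to 25349148. On the first principal component of all tested genes the value of high-fat replicate 1 was -15.7, against 17.6 to 34.6 for the other high-fat libraries. On the same component ketogenic replicates 3 and 4 had -13.4 and -7.32, against 13.6 to 62.2 for the other ketogenic libraries and -50.7 to -41.9 for controls. On the second, ketogenic replicate 5 had 26.2 and the other ketogenic libraries had -51.9 to -23.3. Summed hepatocyte markers (6 genes, none at 0) ran from 120686 to 151925 CPM in controls, from 79770 to 113148 on the high-fat and from 61100 to 109299 on the ketogenic diet. Alb made up most of that sum, with a mean of 105787 CPM in controls. Of the 6 genes, 1 fell on each fat-rich diet (adjusted p under 0.05, edgeR). Stellate cell markers (6 genes, none at 0) ran from 236 to 273, from 315 to 407 and from 274 to 501 CPM. Of these, 2 rose on each fat-rich diet and none fell, while Reln had means of 67.0, 66.3 and 59.1 CPM. Kupffer cell markers (6 genes, none at 0) ran from 226 to 357, from 251 to 437 and from 188 to 574 CPM. Of these, 1 fell on the ketogenic diet, none fell on the high-fat diet and none rose on either. Sinusoidal endothelial markers (5 genes, none at 0) ran from 161 to 211, from 170 to 221 and from 140 to 194 CPM. Of these, 1 fell on each fat-rich diet and none rose. Cholangiocyte markers (5 genes, none at 0) ran from 30.4 to 47.9, from 58.2 to 94.9 and from 30.9 to 201 CPM. Spp1 made up most of that sum, with means of 25.5, 66.2 and 63.4 CPM, while Krt19 had 4.02, 3.29 and 2.68 CPM. None of the 5 passed the test on either fat-rich diet. Pancreatic acinar markers (8 genes; Amy2a5 at 0 in all ketogenic libraries) ran from 24.7 to 1399, from 90.7 to 645 and from 6.87 to 269.6 CPM. The part of these shifts in the results was not tested. Markers of kidney tubule, where many Slc22 genes are active, summed to at most 0.366 CPM in any library. Levels are CPM, read counts scaled by TMM to a common library total, and means carry their SD (n = 4 for control, n = 5 for each other diet).

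Slc22a5, Slc22a26 and Slc22a27 rose on both fat-rich diets, and none of the 8 genes fell on either. Slc22a26 had 9 to 11 and Slc22a27 had 7 to 15 counts per control library. Both passed the filter on low counts only through the fat-rich libraries, where they were high. A gene as low in controls could fail the filter if it fell on the fat-rich diets, so that a rise was more likely to be tested than a fall. The shares over all tested genes carry the same filter. On the high-fat diet 3 of 8 rose beside 6.95% of all tested genes that rose, 5.01% that fell and 12% that changed in either direction. On the ketogenic diet the same 3 genes rose, beside 7.47% of all tested genes that rose, 4.6% that fell and 12.1% that changed. Calls use an adjusted p under 0.05 in the quasi-likelihood test of edgeR, after Benjamini-Hochberg adjustment over all tested genes. The median log2 fold change of the 8 genes was -0.10 on the high-fat and 0.17 on the ketogenic diet, beside 0.01 and 0.03 over all tested genes. The comparisons with control share the 4 control libraries. Over all genes 1016 rose and 733 fell on the high-fat diet and 1093 rose and 673 fell on the ketogenic diet. Scaling by library totals gave 1302 and 420, then 1826 and 368, and shifted the median gene by 0.127 and 0.177 on the log2 scale; the 3 genes rose with that scaling too.

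**Figure D2:**
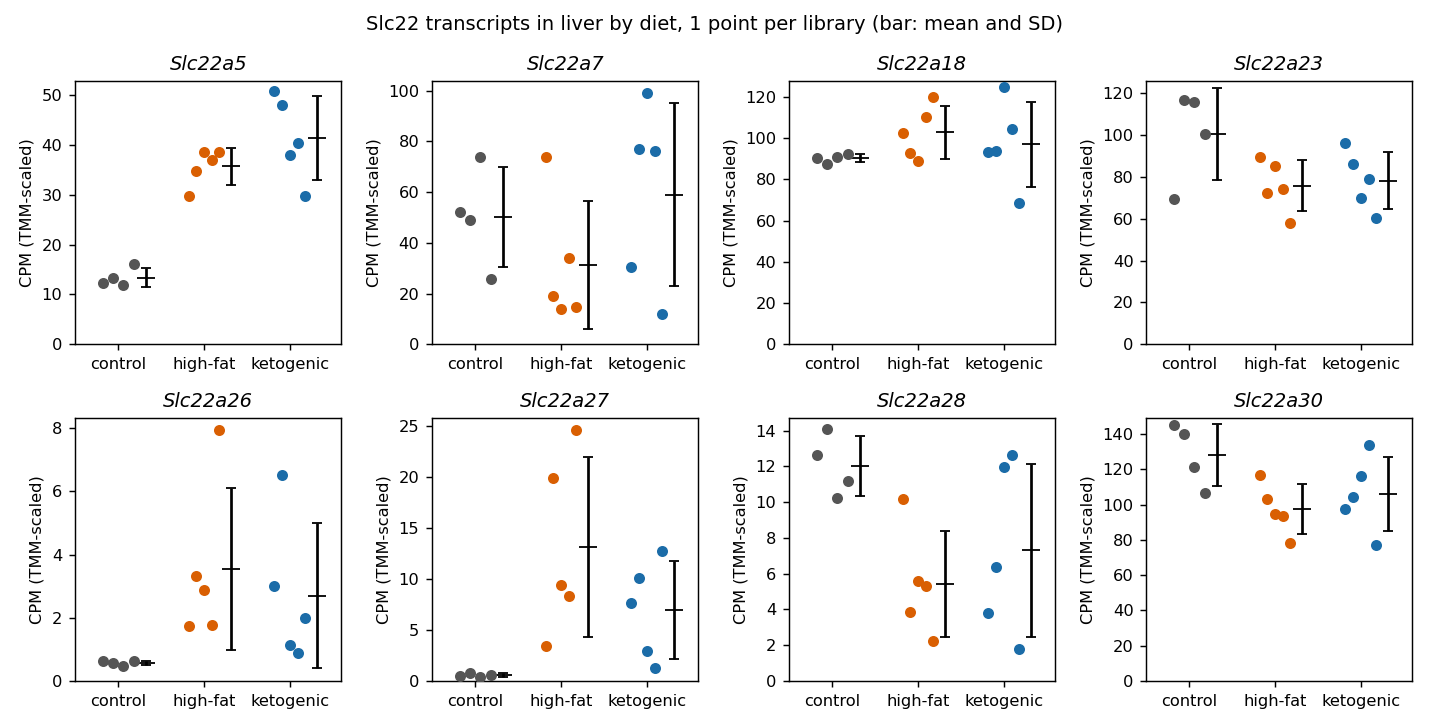
CPM of each of the 8 genes (vertical axes from 0, scaled per gene) by diet, 1 point per library in order of replicate number, with the mean and SD beside them. All 10 libraries of both fat-rich diets lie above all 4 controls for Slc22a5, Slc22a26 and Slc22a27, while Slc22a7 spans 12.0 to 99.1 CPM on the ketogenic diet alone.

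Slc22a5, the carnitine transporter gene (ENSMUSG00000018900), was about 3 times as abundant on either fat-rich diet as in controls. Control replicates 2 to 5 had 12.2, 13.4, 11.8 and 16.1 CPM. High-fat replicates 1 to 5 had 29.7, 34.7, 38.7, 37.0 and 38.7 CPM, and ketogenic replicates 1 to 5 had 50.9, 48.1, 38.0, 40.4 and 29.8 CPM. Each of the 10 lay above every control, and the lowest value on each fat-rich diet came from high-fat replicate 1 and ketogenic replicate 5. For high-fat against control 16.2% of all tested genes had groups without overlap (9.45% higher), and for ketogenic against control 12.5% had (7.38% higher). The mean went from 13.4 ± 1.93 to 35.8 ± 3.76 CPM on the high-fat diet, a log2 fold change of 1.42 ± 0.15 (SE; adjusted p = 6.67e-05, edgeR). On the ketogenic diet it reached 41.4 ± 8.40 CPM, a log2 fold change of 1.63 ± 0.15 (SE; adjusted p = 1.75e-05). Both calls held under every alternative run, with adjusted p of at most 0.00150. Between the fat-rich diets the difference was 0.21 on the log2 scale, with a 95% interval from -0.06 to 0.48 (adjusted p = 0.728).

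Slc22a5 was read beside 12 genes of carnitine synthesis and carnitine acyl transfer, of which 11 matched and were tested. On each fat-rich diet 8 of the 11 rose and none fell, beside 6.95% and 7.47% of all tested genes that rose. The median log2 fold changes were 0.73 on the high-fat and 0.77 on the ketogenic diet, beside 0.01 and 0.03 over all tested genes. Crat, the carnitine acetyltransferase, went from 30.7 ± 5.25 CPM in controls to 98.3 ± 18.2 on the high-fat diet and 89.2 ± 10.96 on the ketogenic diet (adjusted p = 1.86e-05 and 2.70e-05). Crot, the peroxisomal carnitine octanoyltransferase, went from 152.6 ± 28.7 to 431 ± 109.7 and 513 ± 101 CPM (adjusted p = 0.000383 and 9.33e-05). Slc25a20, which exchanges acylcarnitine for carnitine at the inner mitochondrial membrane, had log2 fold changes of 1.02 ± 0.14 and 1.15 ± 0.14 (SE; adjusted p = 0.000324 and 9.47e-05). For Acsl1, which makes the acyl-CoA that enters the shuttle, they were 0.73 ± 0.17 and 1.05 ± 0.17 (SE; adjusted p = 0.0105 and 0.000755). The log2 fold changes of Slc22a5 lay between those of Slc25a20 and the larger of the 2 acyltransferase genes on each diet.

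Slc22a27 (ENSMUSG00000067656), also called Oat9, had the largest fold difference of the 8 genes on both diets. The 4 controls had 0.452, 0.764, 0.359 and 0.628 CPM, from 7 to 15 counts each. High-fat replicates 1 to 5 had 3.41, 19.9, 9.40, 8.38 and 24.6 CPM, and ketogenic replicates 1 to 5 had 7.68, 10.1, 2.91, 1.29 and 12.7 CPM. No fat-rich library overlapped the controls, but the spread within a diet was 7.22-fold on the high-fat and 9.91-fold on the ketogenic diet. High-fat replicate 1 and ketogenic replicates 3 and 4 were the lowest. Means went from 0.551 ± 0.181 to 13.1 ± 8.79 and 6.95 ± 4.81 CPM. The log2 fold change was 4.56 ± 0.79 (SE; adjusted p = 0.00280, edgeR) on the high-fat diet and 3.65 ± 0.78 (SE; adjusted p = 0.00864) on the ketogenic diet. Both calls held in all alternatives, with adjusted p of at most 0.0150 and 0.0359. Ketogenic against high-fat livers gave -0.91 on the log2 scale, with a 95% interval from -2.03 to 0.20 (adjusted p = 0.710).

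Slc22a26 (ENSMUSG00000053303) was low throughout and rose as well. Controls had 0.622, 0.560, 0.461 and 0.628 CPM, from 9 to 11 counts each. On the high-fat diet the values were 1.73, 3.32, 2.87, 1.78 and 7.96 CPM and on the ketogenic diet 3.01, 6.52, 1.12, 0.873 and 1.98 CPM. Again all 10 exceeded the controls, with ketogenic replicates 3 and 4 nearest to them. The log2 fold change was 2.63 ± 0.63 (SE; adjusted p = 0.0145, edgeR) on the high-fat diet and 2.24 ± 0.63 (SE; adjusted p = 0.0298) on the ketogenic diet. The high-fat call was lost without control replicate 4 (adjusted p = 0.0538). The ketogenic call was lost with no filter on low counts (adjusted p = 0.0889) and without any of 6 libraries: control replicates 2, 3, 4 and 5 (adjusted p = 0.0567, 0.0795, 0.0904 and 0.0740) and ketogenic replicates 1 and 2 (adjusted p = 0.0578 and 0.0684), the last of which moved the log2 fold change to 1.62. No stretch of 50 bases of Slc22a26 occurs in another Slc22 gene, but 6.21% of its distinct stretches occur in AC115715.1.

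Slc22a28 (ENSMUSG00000063590), the gene with the near-identical copy, had lower values on the high-fat diet but did not pass the test. Controls had 12.6, 14.1, 10.2 and 11.2 CPM. High-fat replicates 1 to 5 had 10.2, 3.85, 5.59, 5.30 and 2.24 CPM. All 5 lay below the lowest control, replicate 1 only just. Ketogenic replicates 1 to 5 had 3.82, 6.38, 12.0, 12.6 and 1.76 CPM, so that replicates 3 and 4 lay within the control range and the other 3 below it. The log2 fold change was -1.15 ± 0.49 (SE; adjusted p = 0.148, edgeR) on the high-fat diet and -0.73 ± 0.49 (SE; adjusted p = 0.351) on the ketogenic diet. With only high-fat and control libraries in the fit the high-fat difference passed (adjusted p = 0.0344). It also passed without high-fat replicate 1 and ketogenic replicate 5 together (log2 fold change -1.50, adjusted p = 0.00851). That pair was chosen after seeing the data. High-fat replicate 1 had the highest high-fat value of Slc22a28, so leaving it out had to enlarge the high-fat difference.

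Slc22a30 (ENSMUSG00000052562) had a smaller difference of the same sign. The 4 controls had 145, 139.9, 121 and 106 CPM. On the high-fat diet it had 117, 103, 94.9, 93.6 and 78.0 CPM, and on the ketogenic diet 97.8, 104, 116, 134 and 77.3 CPM. High-fat replicate 1 and ketogenic replicates 3 and 4 lay within the control range and the other 7 below it. The log2 fold change was -0.40 ± 0.15 (SE; adjusted p = 0.105, edgeR) on the high-fat diet and -0.28 ± 0.15 (SE; adjusted p = 0.259) on the ketogenic diet. It passed on the high-fat diet with only those 2 groups in the fit (adjusted p = 0.0418) and without high-fat replicate 1 and ketogenic replicate 5 (adjusted p = 0.0184). That pair was chosen after seeing the data. High-fat replicate 1 had the highest high-fat value of Slc22a30, so leaving it out had to enlarge the high-fat difference. Per kilobase of exon Slc22a30 stood at 38.1 ± 5.27 CPM in controls and Slc22a28 at 6.01 ± 0.841. How far reads of 1 copy were counted for the other was not tested.

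Within the tandem group the copies did not move alike, and the same libraries set the extremes for several of them. The ratio of Slc22a27 to Slc22a28 CPM was 0.0350 to 0.0561 in controls. It was 11 in high-fat replicate 5, 7.25 in ketogenic replicate 5 and 5.17 in high-fat replicate 2, but 0.335 in high-fat replicate 1, 0.244 in ketogenic replicate 3 and 0.102 in ketogenic replicate 4. All 10 ratios lay above the controls, which follows from the values of each gene given above and is no further result. Ketogenic replicates 3 and 4 had the lowest Slc22a27 and the highest Slc22a28 values of their diet, so leaving out either had to enlarge both differences. Without ketogenic replicate 3 or without ketogenic replicate 4 the ketogenic log2 fold change was 3.84 or 3.91 for Slc22a27 (adjusted p = 0.00819 or 0.00249, edgeR). It was -0.98 or -1.02 for Slc22a28, which did not pass (adjusted p = 0.213 or 0.204). The tandem genes were then summed in groups that match their direction of change here, so the group sums add no separate evidence. Slc22a26, Slc22a27 and Slc22a29 together went from 1.90 ± 0.204 CPM in controls to 24.05 ± 14.8 on the high-fat and 12.4 ± 7.30 on the ketogenic diet. Slc22a28 and Slc22a30 together went from 140.2 ± 18.99 to 102.8 ± 16.9 and 113 ± 25.7 CPM. The sum of all 5 was 142 ± 18.96 in controls, 126.8 ± 11.1 on the high-fat and 125.7 ± 19.8 on the ketogenic diet, and these ranges overlapped.

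**Figure D3:**
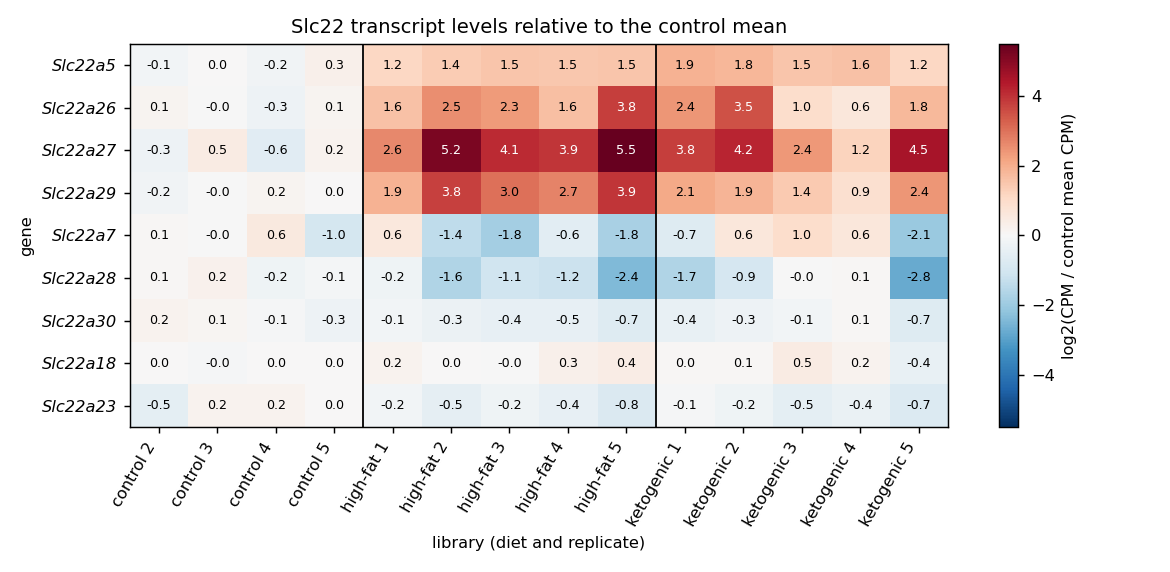
Log2 ratio of each library's CPM to the control mean for the 8 genes and Slc22a29 (rows), by library (columns; vertical lines separate the diets; red higher, blue lower). Within each fat-rich diet Slc22a27 is most raised in replicate 5, where Slc22a28 is lowest of that diet, 2.24 CPM on the high-fat and 1.76 CPM on the ketogenic diet.

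Slc22a7 (ENSMUSG00000067144), the OAT2 gene, varied more within a diet than between diets. Controls had 52.0, 48.9, 73.7 and 25.8 CPM. High-fat replicates 1 to 5 had 73.8, 19.2, 13.9, 33.9 and 14.6 CPM, and ketogenic replicates 1 to 5 had 30.5, 76.9, 99.1, 76.3 and 12.0 CPM. Of the high-fat libraries 3 lay below all controls, and of the ketogenic libraries 3 lay above and 1 below them. The log2 fold change against control was -0.69 on the high-fat diet, with a 95% interval from -1.91 to 0.53 (adjusted p = 0.511, edgeR). It was 0.23 on the ketogenic diet, with an interval from -0.99 to 1.46 (adjusted p = 0.843). Ketogenic against high-fat livers gave 0.92, with an interval from -0.24 to 2.09 (adjusted p = 0.728). Without high-fat replicate 1 and ketogenic replicate 5 that difference was 1.79 and passed (adjusted p = 0.0429). That pair was chosen after seeing the data. It holds the highest high-fat and the lowest ketogenic value of Slc22a7, so leaving it out had to enlarge the difference.

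Slc22a18 (ENSMUSG00000000154), the imprinted gene, was the steadiest in controls, at 90.7, 87.6, 90.8 and 92.4 CPM. High-fat replicates 1 to 5 had 102, 92.7, 89.1, 110 and 120 CPM and ketogenic replicates 1 to 5 had 93.4, 94.0, 125, 104 and 68.4 CPM. All 3 groups overlapped. The 95% intervals of the log2 fold change ran from -0.09 to 0.47 on the high-fat diet (adjusted p = 0.418, edgeR) and from -0.18 to 0.38 on the ketogenic diet (adjusted p = 0.672). Of 10 tested genes of its imprinted neighbourhood, 3 rose on the high-fat diet and 2 on the ketogenic diet, and none fell, beside 6.95% and 7.47% of all tested genes that rose. Their median log2 fold changes were 0.45 and 0.18, beside 0.01 and 0.03 over all tested genes. Osbpl5, an oxysterol-binding protein gene, went from 3.93 ± 0.792 to 8.90 ± 1.55 and 9.85 ± 2.15 CPM (adjusted p = 0.00109 and 0.000329), and Cd81, a tetraspanin gene, from 152 ± 9.76 to 244 ± 30.3 and 210 ± 20.6 CPM (adjusted p = 0.00151 and 0.0140). Tnfrsf23 rose on the high-fat diet (log2 fold change 1.57 ± 0.48, SE; adjusted p = 0.0459).

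Slc22a23 (ENSMUSG00000038267), the orphan member, had 69.5, 117, 116 and 101 CPM in controls. It had 89.5, 72.1, 85.3, 74.3 and 58.0 CPM on the high-fat diet and 96.0, 86.0, 69.7, 78.7 and 60.6 CPM on the ketogenic diet. Control replicate 2 lay among the fat-rich libraries and the other 3 controls above all of them. The log2 fold changes of -0.41 ± 0.17 and -0.36 ± 0.17 (SE) did not pass (adjusted p = 0.132 and 0.175, edgeR). Without control replicate 2 both passed (log2 fold change -0.55 and -0.51, adjusted p = 0.0358 and 0.0468). That library had the lowest control value, so leaving it out had to enlarge both differences. It also had the most pancreatic acinar transcripts of the controls, and a link of these to Slc22a23 was not tested. The high-fat difference also passed without high-fat replicate 1 and ketogenic replicate 5 (adjusted p = 0.0474). That pair was chosen after seeing the data. High-fat replicate 1 had the highest high-fat value of Slc22a23, so leaving it out had to enlarge the high-fat difference.

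**Figure D4:**
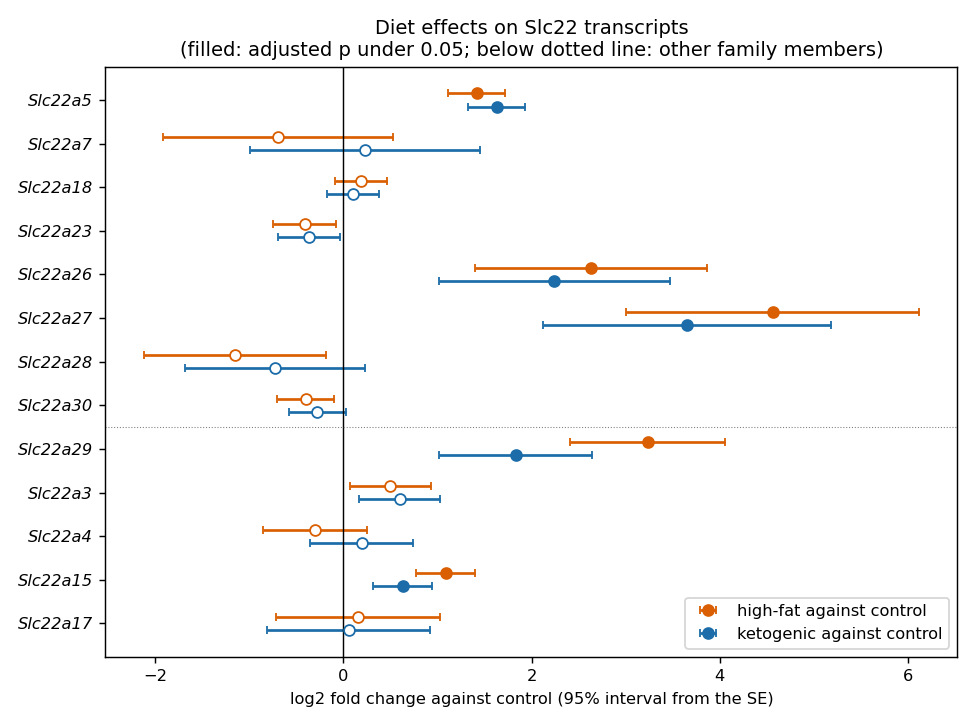
Log2 fold change against control on the high-fat and ketogenic diets, with 95% intervals from the SE, for the 8 genes and 5 other Slc22 genes; filled points passed the test. Slc22a5, Slc22a26, Slc22a27, Slc22a29 and Slc22a15 are filled for both diets, and every other point shown is open.

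None of the 8 genes differed between the ketogenic and high-fat diets in edgeR's test. DESeq2 called 0 of them as well, and 0 had an unadjusted p under 0.05. In that comparison 0.0615% of all tested genes changed, 9 genes, of which 0.00684% rose and 0.0547% fell, while 1273 had an unadjusted p under 0.05 and DESeq2 called 173. The ranges of both diets overlapped for all 8, while 1.76% of all tested genes did not overlap (0.875% higher). Without ketogenic replicate 5 edgeR called 315 genes, still with 0 of the 8. Without that library and high-fat replicate 1, a pair chosen after seeing the data, it called 636, with Slc22a7 the 1 among the 8.

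Of 17 other family members matched, 6 were tested, and 2 of these rose on each fat-rich diet and none fell, beside 6.95% and 7.47% of all tested genes that rose. Slc22a29, the tandem copy that shares sequence with Slc22a27, went from 0.778 ± 0.0798 to 7.37 ± 3.76 CPM on the high-fat diet (adjusted p = 0.000291, edgeR) and to 2.78 ± 1.08 on the ketogenic diet (adjusted p = 0.00903). Slc22a15 went from 6.63 ± 1.23 to 14.1 ± 2.34 and 10.3 ± 1.25 CPM (adjusted p = 0.000646 and 0.0172). Slc22a3, Slc22a4 and Slc22a17 did not pass on either diet. Slc22a6 and Slc22a8, the organic anion transporters of the kidney that neighbour the tandem group, had at most 1 and 3 counts in any library.

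Among 22 tested carriers of other families for organic anions and cations, 5 rose and 2 fell on the high-fat diet and 5 rose and 1 fell on the ketogenic diet. Their median log2 fold changes were 0.17 and 0.21, beside 0.01 and 0.03 over all tested genes. Abcb4, the canalicular phospholipid transporter, went from 166 ± 31.99 to 344 ± 49.0 and 383 ± 69.7 CPM (adjusted p = 0.000988 and 0.000270). Abcg2, an efflux pump, went from 76.5 ± 9.76 to 114 ± 15.3 and 159 ± 30.4 CPM (adjusted p = 0.0211 and 0.000355). Slc47a1, which extrudes organic cations, went from 99.7 ± 13.03 to 169 ± 11.95 and 176 ± 26.02 CPM (adjusted p = 0.00135 and 0.000539). Slco2a1, a prostaglandin transporter gene, fell from 80.0 ± 10.9 to 30.4 ± 6.30 and 33.4 ± 10.7 CPM (adjusted p = 0.000734 and 0.00105). In all 7 and 6 of 22 changed, beside 12% and 12.1% of all tested genes.

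A list of regulators of hepatic transporter genes also held growth hormone targets such as Igf1. Of its 19 tested genes, 3 rose and 1 fell on the high-fat diet and 2 rose and 1 fell on the ketogenic diet. These are 4 and 3 of 19, beside 12% and 12.1% of all tested genes that changed, so that the ketogenic count was near that share. Their median log2 fold changes were -0.17 and -0.05, beside 0.01 and 0.03 over all tested genes. Stat5a, a transcription factor gene of growth hormone and cytokine signalling, went from 11.4 ± 1.94 to 23.96 ± 4.13 and 25.9 ± 4.75 CPM (adjusted p = 0.000943 and 0.000323). Nr1i3, the gene of the xenobiotic receptor CAR, went from 144 ± 18.4 to 248 ± 53.4 and 392 ± 98.6 CPM (adjusted p = 0.0219 and 0.000377). Stat5b rose on the high-fat diet (log2 fold change 0.48 ± 0.12, SE; adjusted p = 0.0213) and Igf1, a growth hormone target, fell (-0.45 ± 0.13, SE; adjusted p = 0.0385).

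The genes with the most similar pattern were found by Pearson's r of log2(CPM + 1) over the 14 libraries, among 11654 other genes, as a description that shares libraries, scaling and the diet contrast. For Slc22a5 they were Vnn1 (r = 0.989), Serinc2 (r = 0.987) and Cyp4a14 (r = 0.986). Slc22a27 was most like Cyp2c38 (r = 0.977), Cyp2c39 (r = 0.965) and Mdfic (r = 0.957), and Slc22a26 most like Rad51b (r = 0.910), Rsad2 (r = 0.905) and Slc22a27 (r = 0.892). Slc22a28 was most like Slco1a1 (r = 0.980), an organic anion uptake carrier that ran from 442 to 669.6 CPM in controls, 15.97 to 368 on the high-fat and 8.75 to 483 on the ketogenic diet. Next to it came Mup7 (r = 0.963) and Ttc39c (r = 0.961), and for Slc22a7 the top genes were Mup1 (r = 0.949), Mup11 (r = 0.935) and Foxred1 (r = 0.933). Slc22a30 followed Tmcc1 (r = 0.948), Slc22a28 (r = 0.918) and Tent4a (r = 0.917). For Slc22a18 they were Mrpl49, Fcgrt and Aldh2 (r from 0.925 to 0.939) and for Slc22a23 they included Gak (r = 0.940) and Pzp (r = 0.938). Mup and Cyp2c genes are themselves families of similar copies, so their single values are uncertain in the same way.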

How the data were processed

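Liver poly(A) RNA was sequenced with a kit that keeps strand, per the labels' protocols. The authors deposited 1 table of whole-number read counts per Ensembl gene with 1 column per library; no 2 columns held identical values, and all columns were mapped. Build GRCm39 and the tools STAR 2.7.9a, featureCounts 1.6, cutadapt 1.16 and DESeq2 1.36.0 are listed, without role or order, per the submitters' processing notes. Annotation release, strand setting and the treatment of multi-mapping reads were not given in the sources used here. Symbols matched 91.4% of IDs and 98.2% of those tested.

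Genes were filtered with edgeR 4.0.16 (filterByExpr, minimum count 10, minimum total 15), scaled by TMM (factors 0.886 to 1.22) and tested in 1 fit of 3 diets with robust glmQLFit and the two-sided glmQLFTest (R 4.3.3), after a test on simulated data. The SE is the absolute log2 fold change divided by the square root of F, and intervals are the normal 95% range from it. Exon lengths and transcripts came from GENCODE M21 and promoters from RefSeq, both GRCm38; no gene coordinates were joined to the counts. Named genes are the 8, from each list up to 4 called genes by smallest adjusted p, and the 3 most similar genes of each, except that a few values are not reported here; the Slc22a6, Slc22a8, Slc22a21 and Slco1a1 values were added as context. The genes and lists were chosen with earlier results of these data known. Alternatives were DESeq2 1.42.0, library totals, no filter, the 2 compared groups alone, a replicate block, the library number as a covariate and leaving out each library; leaving out high-fat replicate 1 with ketogenic replicate 5 was added after seeing the data.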

Additional observations from a re-analysis of the deposited data

Results flagged for a closer look

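Slc22a26 in high-fat replicate 5 stood at 7.96 CPM, apart from the other high-fat libraries, the nearest of which had 3.32; the gap was 0.746 of the range of the group, above Dixon's limit for 5 samples. This was 1 of 24 combinations of gene and diet examined, of which about 1 in 20 would pass the limit by chance. In the contaminated control replicate 1, which entered no comparison, 3 of the genes lay above the 4 other controls, on CPM by library totals. Slc22a5 had 22.8 CPM against at most 14.2 in the other controls, Slc22a26 had 2.18 against at most 0.597 and Slc22a27 had 2.77 against at most 0.736. In the same library Slc22a7 (12.7 CPM) and Slc22a18 (76.0 CPM) lay below the other controls.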

How the results depend on the processing

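Counts of the 8 genes that passed were 3, 3 and 0 for high-fat against control, ketogenic against control and ketogenic against high-fat. Leaving out 1 library at a time gave 2 to 4, 2 to 3 and 0 to 0. Only the 2 groups compared gave 5 for high-fat against control. Leaving out high-fat replicate 1 with ketogenic replicate 5, a pair chosen after seeing the data, gave 6, 3 and 1. The replicate numbers showed no clear pairing of the samples: of 13 same-numbered pairs the deviations correlated above 0.1 in 3 (-0.40 to 0.42), and only 2 matched their own number best. With so few libraries a weak pairing could go undetected. Under a replicate block the counts of the 8 stayed at 3, 3 and 0 and all genes called were 1380, 1297 and 15. All genes called were 1749, 1766 and 9; leaving out 1 library gave 934 to 2145, 1056 to 2201 and 1 to 315. High-fat against control gave 3239 without high-fat replicate 1 and ketogenic replicate 5 together. For ketogenic against high-fat they numbered 173 with DESeq2, 15 with library totals, 26 with no filter, 1 with only the 2 groups, 3 with the library number as a covariate and 636 without high-fat replicate 1 and ketogenic replicate 5. The log2 fold change changed sign, always far from the threshold, in leave-one-out fits for Slc22a7 (-0.036 to 0.48) and Slc22a18 (-0.0053 to 0.19) in ketogenic against control, and for Slc22a18 (-0.19 to 0.016), Slc22a23 (-0.042 to 0.12) and Slc22a26 (-1.01 to 0.16) in ketogenic against high-fat; Slc22a18 was at 0.015 there without high-fat replicate 1 and ketogenic replicate 5. The cause of these shifts was not tested. With 7 to 15 counts per control library for Slc22a26 and Slc22a27, the size of their fold change is imprecise.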
